A study of Mus musculus with 8 samples.

Results

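The genes described here encode the subunits of the proteasome and of the chaperonin CCT, the machines that degrade and fold proteins in every cell. Members were taken by name: mouse genes named Psma, Psmb, Psmc or Psmd with a number, without the immunoproteasome genes Psmb8, Psmb9 and Psmb10, and Tcp1 with Cct2 to Cct8. The array held 45 of them among 20660 named genes: 8 genes of 20S alpha subunits, 8 of 20S beta subunits, 6 of 19S ATPases, 14 of 19S non-ATPase proteins and 9 of CCT. Of these, 43 gave a signal well above background on enough arrays to be tested.

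RNA of primary spheres, free-floating clusters that grow from single cells, was measured on 8 Agilent arrays with 1 colour. The source was the superior mesenteric ganglion, a sympathetic ganglion of the abdomen, of mice aged 3 weeks. All mice were TH-MYCN hemizygotes (TH-MYCN+/-) of the strain background 129+Ter/SvJcl, so both groups carried the transgene, in which the tyrosine hydroxylase promoter drives human MYCN in sympathetic cells. The groups were 4 cultures in RA (-) medium, which lacked retinoic acid, and 4 cultures in RA (+) medium, which contained it, each kept for 8 days. Cells of 1 ganglion were divided between both media in each of 4 biological replicates, called animals 1 to 4 below. Retinoic acid is a vitamin A derivative that acts through nuclear receptors and drives the differentiation of many neuroblastoma cells.

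The proteasome is a barrel, the 20S core, capped by 19S regulators. The alpha subunits form the outer rings and the gate of the barrel, and the beta subunits form the inner rings, where 3 of them cut peptide bonds. The ATPases of the 19S regulator unfold substrates and thread them into the core, while its non-ATPase proteins bind ubiquitin chains, remove them and hold the regulator together. CCT, also called TRiC, is a double-ring chaperonin that folds actin, tubulin and many other proteins with energy from ATP. Genes of both machines are expressed in all cells, and textbook accounts tie high CCT levels to growing cells.

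Promoters of 4 members are shown because the genes of these machines moved largely together: Psmc6 had the largest change of all members, Psmb5 encodes a catalytic subunit, Cct7 had the largest change in CCT and Psmd8 the smallest change of the proteasome genes. Each sequence runs 5′ to 3′ on the strand of the gene, from 250 bases before to 50 bases after the start of transcription, and comes from RefSeq on build GRCm38.p6. Capitals mark letters that match, on either strand, the antioxidant response element core (ARE core, TGACNNNGC), the CCAAT box (CCAAT) or the ETS site (CCGGAAG). The windows are chr14:45329574-45329873 on the plus strand for Psmc6, chr14:54617946-54618245 on the minus strand for Psmb5, chr6:85451255-85451554 on the plus strand for Cct7 and chr7:29180624-29180923 on the minus strand for Psmd8.
Psmc6: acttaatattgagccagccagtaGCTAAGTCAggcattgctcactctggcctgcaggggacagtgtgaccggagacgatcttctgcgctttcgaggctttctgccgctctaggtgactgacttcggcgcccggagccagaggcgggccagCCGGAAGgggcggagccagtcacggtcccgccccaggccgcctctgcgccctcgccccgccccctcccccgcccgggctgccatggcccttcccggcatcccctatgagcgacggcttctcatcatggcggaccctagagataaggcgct
Psmb5: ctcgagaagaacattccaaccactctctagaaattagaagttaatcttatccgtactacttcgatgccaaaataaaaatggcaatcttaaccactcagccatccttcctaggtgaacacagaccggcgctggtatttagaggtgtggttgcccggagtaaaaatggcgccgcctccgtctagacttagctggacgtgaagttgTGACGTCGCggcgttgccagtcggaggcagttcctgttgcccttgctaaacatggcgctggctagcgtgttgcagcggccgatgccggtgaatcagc
Cct7: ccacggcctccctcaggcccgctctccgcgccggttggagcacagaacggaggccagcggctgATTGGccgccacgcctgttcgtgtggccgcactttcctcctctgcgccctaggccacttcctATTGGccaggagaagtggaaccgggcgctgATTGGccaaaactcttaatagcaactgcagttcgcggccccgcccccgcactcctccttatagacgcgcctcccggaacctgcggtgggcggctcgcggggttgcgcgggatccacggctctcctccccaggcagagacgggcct
Psmd8: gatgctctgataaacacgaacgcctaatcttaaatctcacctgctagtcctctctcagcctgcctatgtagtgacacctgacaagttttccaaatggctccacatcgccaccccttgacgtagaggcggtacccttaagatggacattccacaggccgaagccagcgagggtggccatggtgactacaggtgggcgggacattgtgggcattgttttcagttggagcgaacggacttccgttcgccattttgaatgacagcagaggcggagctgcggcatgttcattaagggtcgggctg
The Psmc6 window held an ARE core beginning 227 bases before the start and an ETS site, and the Psmb5 window an ARE core beginning 47 bases before it. The Cct7 window held 3 CCAAT boxes, and the Psmd8 window none of these 3 motifs.

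Over all members, 37 of 45 had a window in the RefSeq table, in 41 windows since 4 genes had a second start. The ETS site was in 15 of 41 member windows (36.6%) and in 8.86% of all 32851 windows of this length. The GC box (GGGCGG) was in 63.4% of member windows and 35.7% of all windows. The CCAAT box stood in 41.5% of member windows and 37.4% of all, and the ARE core in 8 of 41 member windows (19.5%) and 12.4% of all. The other motifs searched were rarer. The E-box CACGTG was in 4.88% of member windows and 7.15% of all, and the heat shock element core GAANNTTC in 4.88% and 7.86%. The palindromic site of nuclear respiratory factor 1 was in 4.88% of member windows and 0.971% of all. The DR5 retinoic acid element, a direct repeat read by retinoic acid receptors, was in 0 of 41 member windows and in 3 of all windows. Only the exact repeat was searched, and it is too rare for 0 of 41 to be informative. Both strands were searched, matches of different motifs could overlap, and a match is only a match of letters.

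Levels below are log2 of the processed signal relative to the array's 75th percentile, and changes are differences of these levels, RA (-) minus RA (+). On each array 48.5% to 55.0% of spots in RA (-) and 52.7% to 55.3% in RA (+) were well above background, and the 75th percentile was 235 to 295 intensity units in RA (-) and 228 to 306 in RA (+). All 15 sympathoadrenal markers, among them Th and Dbh, gave signals well above background on every array. Of the markers of other cell types, Erbb3 of glia, Lum and Pdgfra of fibroblasts, Ptprc and Cd14 of immune cells, Cdh5, Tek and Emcn of endothelium and Cyp11a1 and Cyp11b1 of adrenal cortex were above background on no array. The mouse Mycn probe differed by -0.18 between the media (adjusted p = 0.198 by limma). Marker levels and the members both come from bulk RNA, in which fewer cells of a type and less RNA per cell cannot be told apart.

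Most proteasome and CCT genes rose modestly in RA (-) spheres under scaling to the 75th percentile. Of 43 tested members, 36 rose and 7 were not called, by limma with the animal as a block and an adjusted p under 0.05 over all genes. No member was called lower, and at an unadjusted p under 0.05 by limma 0 were lower. The medium changed 64.3% of all 13539 tested genes, with 36.1% higher and 28.2% lower, and against that background 83.7% of the members were higher. The median change of the members was 0.51, a 1.43-fold higher signal, and the median of all tested genes was 0.07. Medians within animals 1 to 4 were 0.39, 0.45, 0.65 and 0.48 (SD 0.11), and 39 members were higher in all 4 animals. All RA (-) arrays lay above all RA (+) arrays for 24 of 43 members and for 29.5% of all genes. The members' changes ranged from -0.24 for Cct6b to 0.78 for Psmc6, with an SD of 0.20 between genes, against an SD of 0.99 over all tested genes. These sets differ in signal strength, since 5420 of the 13539 tested genes but only 1 member had a mean level below 0. The SD for genes of like level was not computed.

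The size of this rise depended on how the arrays were scaled to each other. Scaled to the spike-in RNA, 27 members rose with a median of 0.66, while 25.1% of all genes were called higher. Scaled to the 75th percentile of probes above background on all arrays, 32 rose with a median of 0.40, beside 29.3% of all genes. Quantile normalization, which gives every array the same distribution of signals, left 14 of 43 members higher, a share close to the 29.2% of all genes called higher there, with a median of 0.15. With normexp background correction before it, 19 were higher and 2 lower, with a median of 0.13, beside 30.1% of all genes higher. Spike-in scaling moved the median of all genes to 0.22 and the percentile of detected probes moved it to -0.04. Both of these and the 75th percentile subtract a constant from each array. The members' distance above the median of all genes, 0.44, was therefore the same under all of them by construction. The quantile settings can change this distance, which was 0.17 under quantile normalization and 0.14 with normexp before it. Under all 13 alternative settings the same 13 members rose: Psma1, Psma4, Psma5, Psma6, Psma7, Psmb2, Psmb7, Psmc4, Psmc6, Psmd6, Psmd9, Cct6a and Cct8.

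**Figure D1:**
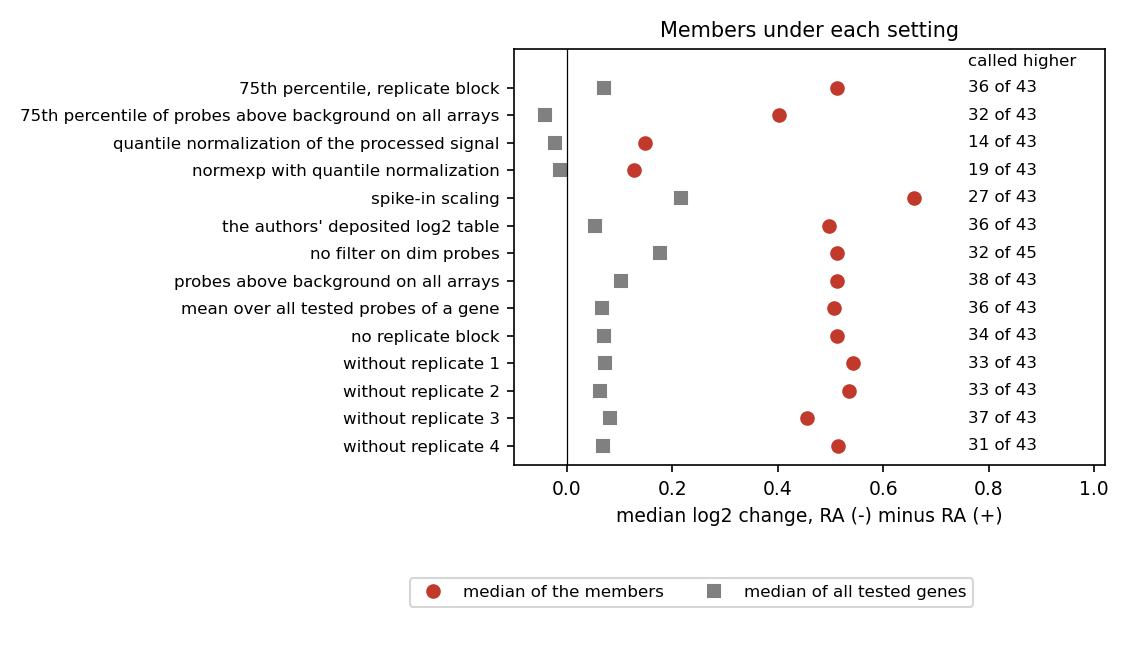
Median log2 change of the 43 tested members, or 45 with no filter on dim probes (red circles), and of all tested genes (grey squares), RA (-) minus RA (+), on the horizontal axis under each processing setting down the page, with the number of members called higher at the right. The members' median lies above that of all genes in every setting, and falls to 0.15 and 0.13 under the quantile settings.

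Changes also followed the strength of the signal. Members have strong signals, and 34 of 43 had a mean level of at least 4 on the log2 scale, against 13.6% of all tested genes. Among all genes with a mean level of 6 or more, 66.5% rose and the median change was 0.41. Of the 16 members in that range, 15 rose, with a median of 0.48. For levels from 4 to 6, 51.3% of all genes rose with a median of 0.24, and 15 of 18 members rose with a median of 0.55. Under quantile normalization the members with levels of 6 or more had a median of 0.03, with 1 of 16 higher, beside -0.03 and 19.9% higher for all such genes. Those from 4 to 6 had a median of 0.25, with 9 of 18 higher, beside -0.04 and 30.1% higher for all such genes. The part of signal strength in the members' change was not tested.

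**Figure D2:**
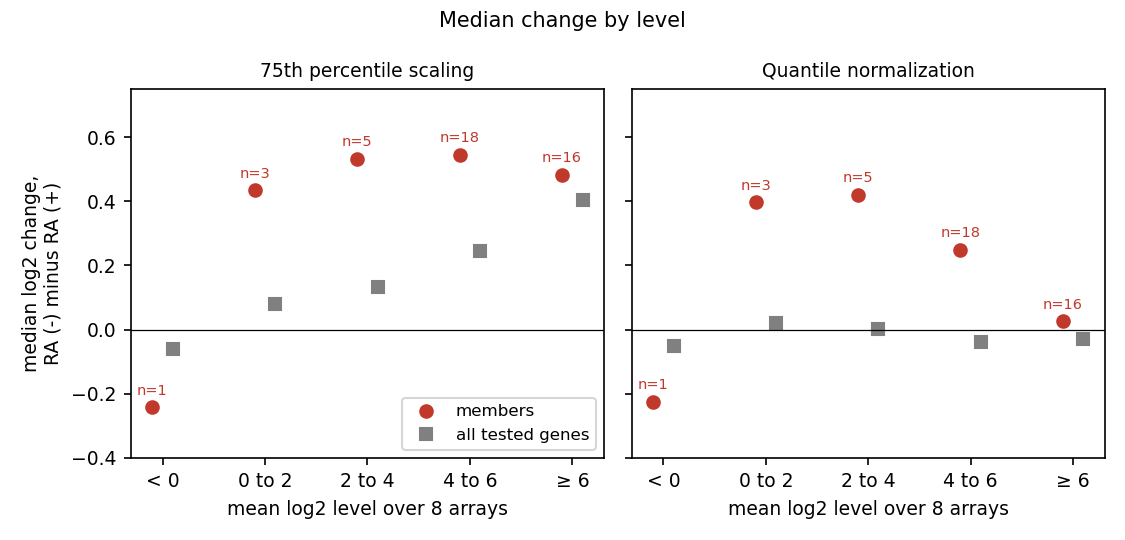
Median log2 change, RA (-) minus RA (+), for members (red circles, with their number) and all tested genes (grey squares) in 5 ranges of the mean log2 level over the 8 arrays, under 75th percentile scaling on the left and quantile normalization on the right. At levels of 6 or more the members' median is 0.48 beside 0.41 for all genes on the left, and 0.03 beside -0.03 on the right.

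The genes of the 20S alpha ring rose together. All 7 tested alpha genes were higher, by 0.51 to 0.73 with a median of 0.61 and an SD between genes of 0.07, and 5 of them stayed called under every alternative setting. Called higher were 36.1% of all tested genes, 51.3% of those with levels from 4 to 6 and 66.5% of those at 6 or more. Psma7, whose product lies between those of Psma4 and Psma5 in the ring, had levels of 6.91, 7.28, 7.44 and 7.44 in RA (-) animals 1 to 4, against 6.29, 6.67, 6.58 and 6.62 in RA (+). Every RA (-) array was above every RA (+) array, and the change was 0.73 (SE 0.08, adjusted p = 0.000698 by limma). Psma2 had the smallest alpha change, with 6.53, 6.97, 7.12 and 7.01 in RA (-), against 6.10, 6.53, 6.48 and 6.47 in RA (+). Its groups overlapped at RA (-) array 1 and RA (+) array 2, although each animal alone was higher in RA (-). The change of Psma2 was 0.51 (adjusted p = 0.00190), and 0.06 under quantile normalization, where it was not called.

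Psma1, Psma3, Psma4, Psma5 and Psma6 rose by 0.64, 0.59, 0.61, 0.67 and 0.55. Psma3 shared with Psma2 the loss of its call under quantile normalization, where its change was 0.15. The remaining alpha gene, Psma8, encodes the alpha subunit of the testis proteasome. Its probe read -6.61, -6.29, -6.03 and -5.81 in RA (-), against -6.63, -5.59, -6.29 and -6.29 in RA (+). No array showed it well above background, so it was left out of the test and has no fold.

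The 20S beta genes include the 3 catalytic subunits, all of which were higher in RA (-) spheres under 75th percentile scaling. Psmb5, the chymotrypsin-like subunit, read 8.08, 8.19, 8.33 and 8.25 in RA (-), against 7.71, 7.74, 7.94 and 7.78 in RA (+). Psmb6, the caspase-like subunit, read 7.64, 7.75, 7.98 and 7.81 in RA (-), against 7.17, 7.34, 7.43 and 7.37 in RA (+). Psmb7, the trypsin-like subunit, read 4.34, 4.70, 4.97 and 4.99 in RA (-), against 3.95, 4.30, 4.11 and 4.19 in RA (+). For all 3 genes every RA (-) array lay above every RA (+) array, as for 29.5% of all tested genes, with the narrowest gap in Psmb7. The changes were 0.42 (SE 0.07, adjusted p = 0.00273) for Psmb5, 0.47 (SE 0.07, adjusted p = 0.00194) for Psmb6 and 0.61 (SE 0.11, adjusted p = 0.00493) for Psmb7, by limma. Under quantile normalization Psmb7 still rose, by 0.36, while Psmb5 had a change of -0.05 and Psmb6 of 0.01, neither called.

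**Figure D3:**
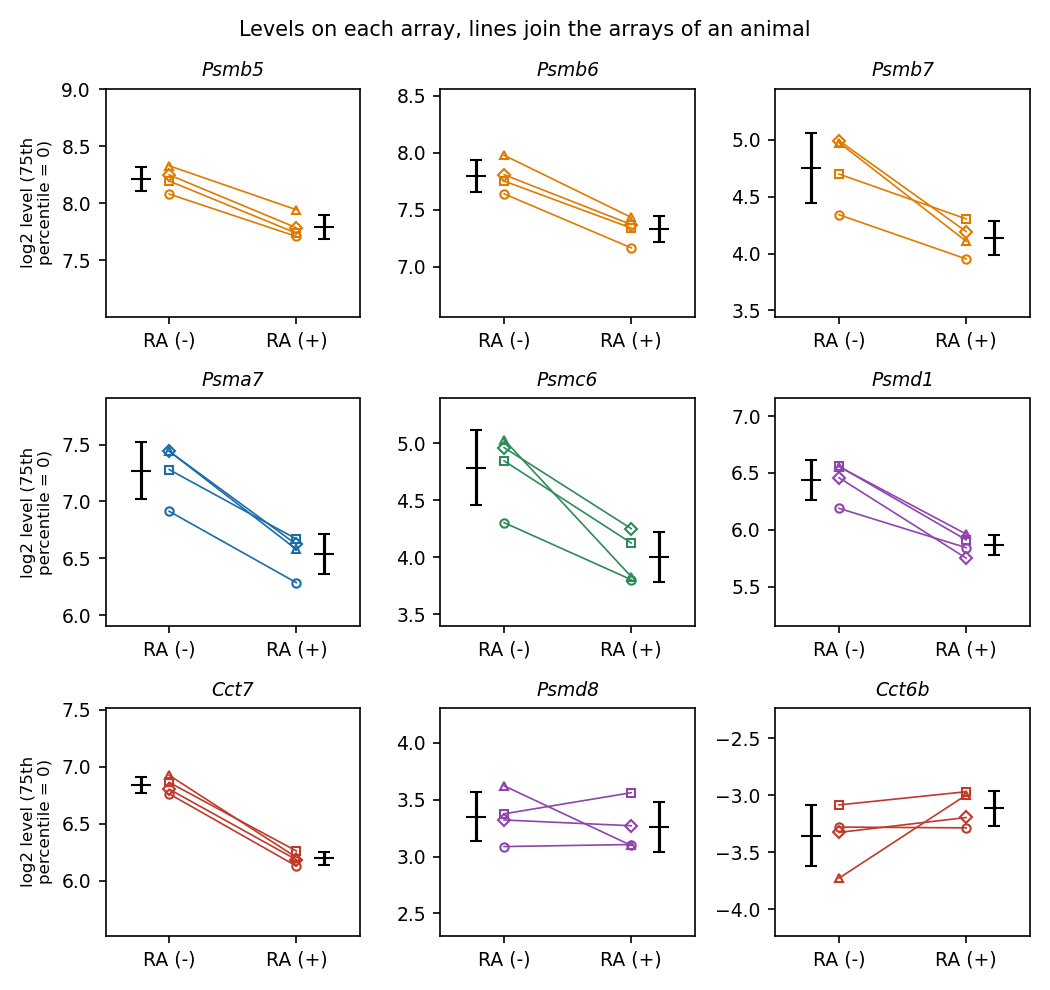
Log2 levels relative to the array's 75th percentile for 9 members, RA (-) on the left and RA (+) on the right of each panel, with lines joining the arrays of 1 animal and black marks for the mean and SD over 4 arrays. The circle is animal 1, the square animal 2, the triangle animal 3 and the diamond animal 4. Psmb5, Psmb6, Psmb7, Psma7, Psmc6, Psmd1 and Cct7 slope down to RA (+) in every animal, while the lines of Psmd8 and Cct6b cross.

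Of 7 tested beta genes, 6 rose, with a median of 0.48, beside 36.1% of all tested genes called higher. Psmb2 had the largest change, with levels of 2.66, 3.09, 3.42 and 3.31 in RA (-), against 2.22, 2.40, 2.52 and 2.46 in RA (+). The groups did not overlap, and the rise of 0.72 (SE 0.10, adjusted p = 0.00160 by limma) was 0.60 under quantile normalization, still called. Psmb3 and Psmb4 rose by 0.49 and 0.48, and under quantile normalization stood at 0.03 and 0.02, neither called. Psmb1 was higher in 4 of 4 animals by 0.26, with an adjusted p of 0.0516, and was not called; without animal 2 it was called at 0.34. Psmb11, the beta subunit of the thymus proteasome, read -6.47, -6.41, -6.12 and -5.71 in RA (-), against -6.75, -6.05, -6.38 and -6.34 in RA (+), and no array showed it well above background.

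All 6 ATPases of the 19S ring rose, by 0.23 to 0.78 with a median of 0.45, and for each of them all RA (-) arrays were above all RA (+) arrays. The shares of all tested genes were 36.1% called higher and 29.5% with such a separation of the arrays. Psmc6 had the largest change of any member, with 4.30, 4.85, 5.03 and 4.96 in RA (-), against 3.80, 4.12, 3.83 and 4.25 in RA (+). Its RA (-) array 1 lay only just above the highest RA (+) array, and animal 3 had the widest gap. The change was 0.78 (SE 0.13, adjusted p = 0.00283 by limma). Psmc5 had the smallest change, with 5.03, 5.08, 5.10 and 4.96 in RA (-), against 4.85, 4.71, 4.92 and 4.77 in RA (+). These ranges were narrow and close together, and the change of 0.23 had an adjusted p of 0.0358; leaving out animal 1, 2 or 4 gave 0.24, 0.18 and 0.24 and ended the call. With the detected-probe percentile it was 0.12 and not called. Psmc1, Psmc2, Psmc3 and Psmc4 rose by 0.43, 0.45, 0.44 and 0.71.

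The ATPases split under the other scalings. Psmc4 and Psmc6 kept their calls under all of them, with changes of 0.45 and 0.54 under quantile normalization. The other 4 lay between -0.08 for Psmc5 and 0.01 for Psmc2 there and were not called. The median of the 6 ATPases was then -0.0046. Under spike-in scaling the same 4 had changes of 0.37 to 0.60 and were not called either.

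The 19S non-ATPase proteins held 4 of the 5 proteasome genes that were tested and not called. Of these 14 genes 10 rose (71.4%), with a median of 0.46 and a range of 0.09 to 0.57, beside 36.1% of all tested genes. In the ranges of mean level that these genes span, 37.1% to 66.5% of all genes were called higher. Psmd1, a large scaffold protein of the regulator, read 6.19, 6.56, 6.56 and 6.46 in RA (-), against 5.84, 5.91, 5.96 and 5.75 in RA (+). All RA (-) arrays were above all RA (+) arrays, and the change was 0.57 (SE 0.09, adjusted p = 0.00225 by limma). Under the quantile settings the change of Psmd1 was 0.16 and 0.13 and was not called. Psmd11, a lid protein that clamps regulator to core, read 2.29, 2.21, 2.03 and 2.07 in RA (-), against 2.07, 1.99, 1.75 and 1.84 in RA (+). The groups overlapped although each animal was higher in RA (-), and the change of 0.23 had an adjusted p of 0.0224. Without the block for the animal it was not called (adjusted p = 0.0765), nor without animal 1, 2 or 4, at 0.24 each. The call was also lost with the detected-probe percentile at 0.12, the quantile settings at 0.13 and 0.08 and the spike-ins at 0.38.

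Among the proteins that handle ubiquitin, Psmd4, a receptor of ubiquitin chains, rose by 0.51, and Psmd14, the deubiquitinase of the lid, by 0.53 (adjusted p = 0.0332 by limma). Under the quantile settings Psmd4 was at 0.06 and 0.07 and was not called. The change of Psmd14 was 1.16 in animal 3 beside 0.29 to 0.37 in the other animals. Without animal 3 it was 0.32 and still called, while without animal 2 or 4 it was 0.59 and 0.61 and not called, as with the detected-probe percentile and quantile normalization, at 0.42 each. Psmd2, a large docking protein for ubiquitin shuttle factors, had a change of 0.17 (adjusted p = 0.0637) and was not called. Psmd6, Psmd7, Psmd12 and Psmd13, structural proteins of the regulator, rose by 0.55, 0.24, 0.55 and 0.48. Under quantile normalization Psmd12 and Psmd13 were at 0.20 each and not called, though both were called with normexp before it. The call of Psmd7 was lost without animal 1, 2 or 4, at 0.25, 0.22 and 0.23, and under the 4 other scalings of the scanner signal, at 0.12 with the detected-probe percentile, 0.06 and 0.05 with the quantile settings and 0.38 with the spike-ins. Psmd3 and Psmd8, lid proteins too, were at 0.18 and 0.09 and were not called; without animal 3 Psmd3 was called higher at 0.26. Under normexp with quantile normalization Psmd2 and Psmd3 were called lower, at -0.17 and -0.22.

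The proteins Psmd5, Psmd9 and Psmd10 share the name but are chaperones that help to assemble the ATPase ring and are not part of the finished particle. Psmd9 rose by 0.57 and Psmd10 by 0.43, while Psmd5 was at 0.10 and was not called (adjusted p = 0.475). The call of Psmd10 was lost without the block for the animal (adjusted p = 0.112), without animal 4, at 0.39, and under spike-in scaling, at 0.58. Both Psmd9 and Psmd10 have 2 probes on the array, and their probes ranged from 0.36 to 0.57 for Psmd9 and from 0.13 to 0.43 for Psmd10. The Psmd10 probe at 0.13 was not called (adjusted p = 0.181 by limma). The 6 other members with 2 probes, Psma4, Psmb5, Psmc1, Psmc2, Psmc3 and Psmd12, had probes within 0.06 of each other.

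**Figure D4:**
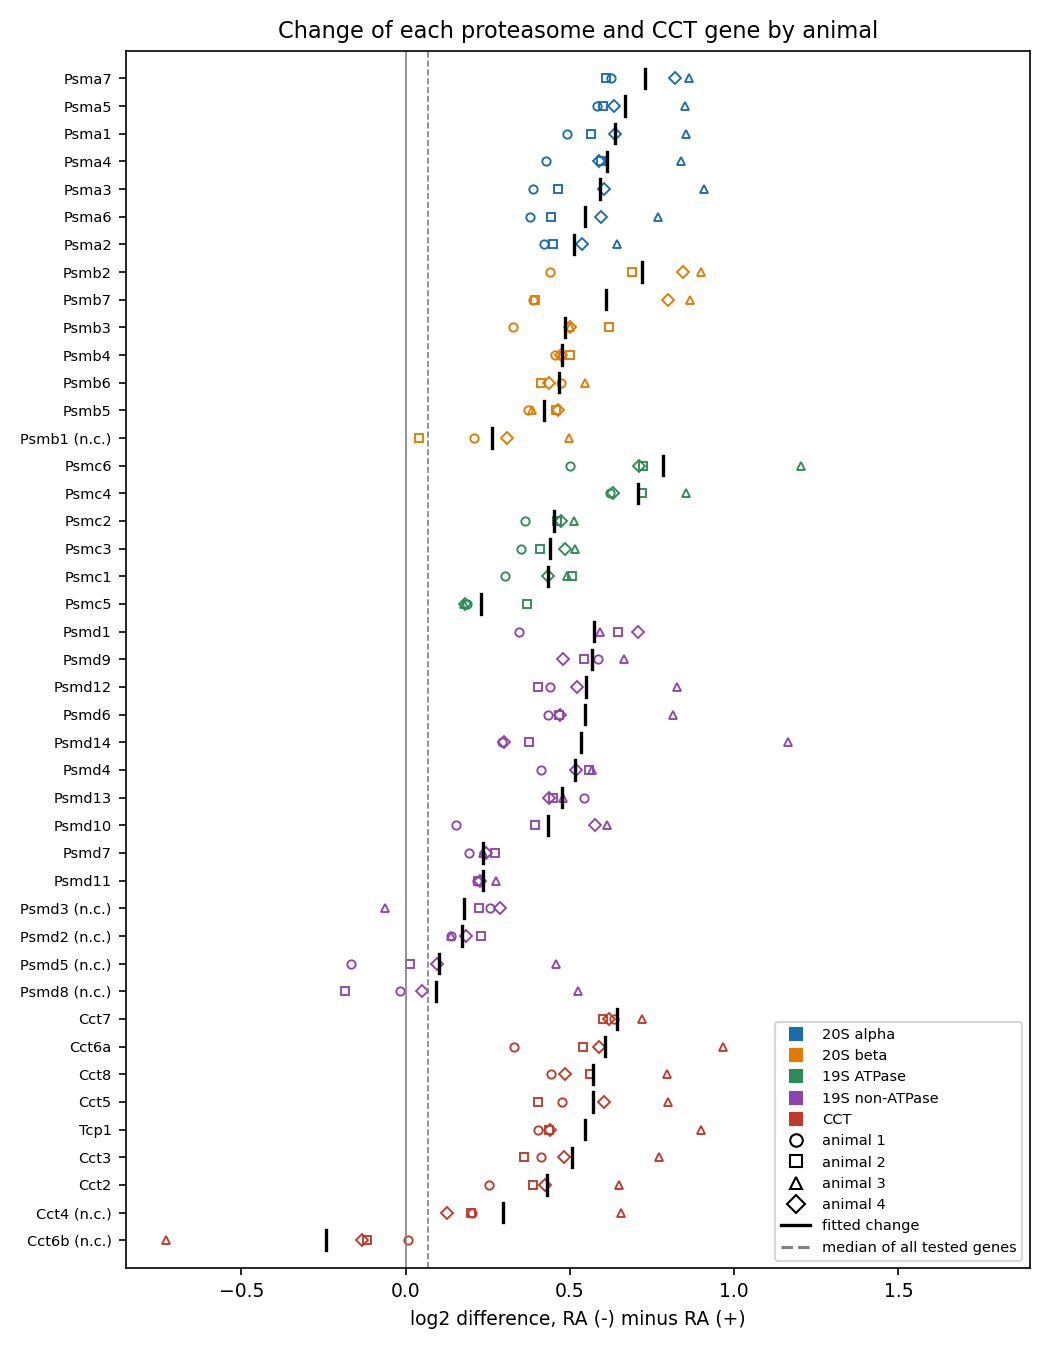
Log2 change, RA (-) minus RA (+), on the horizontal axis for each of the 43 tested members down the page, coloured by class, with 1 symbol per animal and a black bar for the fitted change; n.c. marks members not called. Most bars lie right of the dashed line at 0.07, the median of all tested genes, and animal 3 (triangles) is often the farthest right.

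Of the 9 CCT genes, 7 rose and 2 were not called, with a median of 0.55 under 75th percentile scaling and 0.18 under quantile normalization. The share of all tested genes called higher was 36.1% and 29.2% under these scalings. Cct7, the eta subunit, had the largest change, with 6.76, 6.86, 6.93 and 6.80 in RA (-), against 6.13, 6.26, 6.21 and 6.18 in RA (+). The replicates of both media were tight and the groups well apart, with a change of 0.64 (SE 0.07, adjusted p = 0.000594 by limma). Cct2, the beta subunit, had the smallest called change, with 6.55, 6.84, 6.89 and 6.85 in RA (-), against 6.29, 6.45, 6.24 and 6.42 in RA (+). Its RA (-) array 1 lay below the other RA (-) arrays but above all RA (+) arrays, and the change was 0.43 (SE 0.09, adjusted p = 0.00719). Under quantile normalization Cct7 was at 0.18 and Cct2 at -0.04, neither called.

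Tcp1, the alpha subunit, and Cct3, Cct5, Cct6a and Cct8 rose by 0.55, 0.51, 0.57, 0.61 and 0.57. Of these, only Cct6a and Cct8 were called under quantile normalization. Tcp1, Cct3 and Cct5 were at 0.25, 0.25 and 0.12 there. With normexp before it Tcp1 and Cct3 were called and Cct5 was not. Cct4, the delta subunit, was higher in 4 of 4 animals by 0.30 with an adjusted p of 0.0566, and was not called. Cct6b, the testis counterpart of the zeta subunit Cct6a, was the only tested member with a negative change. It read -3.28, -3.09, -3.73 and -3.33 in RA (-), against -3.29, -2.97, -3.00 and -3.20 in RA (+). The groups overlapped, and the change of -0.24 was not called (adjusted p = 0.167).

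The members shared a pattern over the arrays as well as over the media. Within RA (-), array 1 was the lowest of the 4 for 37 of 43 members and array 3 the highest for 32. Over all tested genes RA (-) array 1 was the lowest for 38.3%. Within RA (+), array 1 was again the lowest for 31 of 43 members. Over all tested genes the share was 31.5% for RA (-) array 3 highest and 31.2% for RA (+) array 1 lowest. The change was largest in animal 3 for 32 members, and for 31.6% of all genes. It was smallest in animal 1 for 28 members, and for 25.7% of all genes. Without animal 1, 33 members were called higher and without animal 3, 37.

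Other marker genes moved beside the members, in data where 36.1% of all tested genes were higher and 28.2% lower. Of the 15 sympathoadrenal markers 5 rose and 5 fell, among them Th at 3.59, Gata2 at 2.12, Isl1 at 2.00, Dbh at -1.53 and Slc18a1 at -3.12, with summed levels, on a linear scale relative to the 75th percentile, of 599 to 708 in RA (-) and 556 to 672 in RA (+). All 10 proliferation markers rose, with a median of 1.94, and their summed level was 405 to 632 in RA (-) and 116 to 181 in RA (+). Of the glia markers 3 of 7 tested fell, with summed levels of 13.5 to 17.4 in RA (-) and 26.4 to 28.9 in RA (+). Of the immune markers 3 of 5 were called lower. Among these Aif1 and Adgre1 were above background on all RA (+) arrays and no RA (-) array, at least 1.49-fold and 1.44-fold lower in RA (-). Both had entered the test only through RA (+), so their calls are not read as results. The immune sums were 14.9 to 17.1 in RA (-) and 19.2 to 23.8 in RA (+). Of the fibroblast markers 4 of 6 were called lower and 1 higher. Dcn, among the lower, was above background on no RA (-) array, at least 1.64-fold lower in RA (-). It had entered the test only through RA (+), so its call is not read as a result. The fibroblast sums were 5.03 to 7.76 in RA (-) and 6.55 to 7.83 in RA (+). Of the endothelial markers 1 of 2 fell, with sums of 8.03 to 9.44 in RA (-) and 8.08 to 10.04 in RA (+). Of the adrenal cortex markers 1 of 3 rose, with sums of 0.663 to 0.799 in RA (-) and 0.554 to 0.703 in RA (+). Their part in the members' changes was not tested.

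Genes of the proteins that build the proteasome rose under every scaling, beside 25.1% to 36.1% of all tested genes called higher. All 5 genes of proteasome assembly chaperones were called higher, with a median of 0.68, and all 5 were also called, with medians of 0.57, 0.52, 0.51 and 0.83 under the detected-probe percentile, quantile, normexp with quantile and spike-in settings. Psmg2 rose by 0.76 and its partner Psmg1 by 0.73, which together guide the alpha ring. Psmg3 and Psmg4, another such pair, rose by 0.68 and 0.64. Psmg1 read 4.91, 5.34, 5.38 and 5.30 in RA (-), against 4.29, 4.71, 4.46 and 4.54 in RA (+), with no overlap.

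The alternative caps of the core went several ways. Psme3, the nuclear activator PA28 gamma, rose by 0.64 (adjusted p = 0.00307 by limma). Psme1 and Psme2, the interferon-inducible activator PA28 alpha and beta, fell by 0.23 and 0.29 (adjusted p = 0.0229 and 0.0255). Without the block for the animal neither fall was called (adjusted p = 0.0525 and 0.101), and neither was under spike-in scaling. The call of Psme1 was also lost without animal 1, 2 or 4, at -0.22, -0.24 and -0.24, and that of Psme2 without animal 1, 2 or 3, at -0.25, -0.27 and -0.28. Psme4 and the inhibitor Psmf1 were at 0.05 and 0.17 and were not called. Of the immunoproteasome genes, which replace the catalytic subunits in immune responses, Psmb10 rose by 0.44, a call lost under spike-in scaling, and Psmb8 was above background on no array. Psmb9 was above background on 3 of 4 RA (+) arrays and on no RA (-) array, at least 1.28-fold lower in RA (-), and was not tested.

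The 19 genes of ubiquitin and of proteasome cofactors held 9 that rose and 3 that fell, with a median of 0.23. Over all tested genes 36.1% were higher and 28.2% lower. Uchl5, a deubiquitinase bound to the regulator, rose by 0.92, Sem1, the smallest lid protein, by 0.85, Txnl1, a thioredoxin of the regulator, by 0.69 and Rps27a, a fusion of ubiquitin with a ribosomal protein, by 0.68. Sem1 read 7.51, 7.96, 8.12 and 8.05 in RA (-), against 6.77, 7.15, 7.14 and 7.19 in RA (+), with no overlap. Of the genes that fell, Ubqln2, a shuttle factor, fell by 0.43 and Uba1, the main ubiquitin-activating enzyme, by 0.28. The call of Uba1 was lost without animal 2, 3 or 4, at -0.24, -0.26 and -0.28, without the filter on dim probes, and with the mean over its tested probes, at -0.17 (adjusted p = 0.129 by limma). Under quantile normalization 7 of the list rose and 7 fell, beside 29.2% of all tested genes higher and 4463 of 13539 lower. Under spike-in scaling 5 rose, beside 25.1% of all tested genes, while Ubqln2 and Uba1 were not called.

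Of 5 genes of the NRF1 pathway 1 rose and 3 fell, beside 36.1% higher and 28.2% lower over all tested genes. Nfe2l1 encodes NRF1, a transcription factor known to raise proteasome genes through ARE sites when the proteasome is inhibited. It read -1.51, -2.30, -2.46 and -2.14 in RA (-), against -1.13, -1.39, -1.34 and -1.54 in RA (+). The groups overlapped at RA (-) array 1, and the change was -0.76 (adjusted p = 0.00437 by limma). Nfe2l2, encoding the related NRF2, fell by 0.40, and Ngly1, which removes sugar chains from NRF1, fell by 0.27, a call lost without the block for the animal (adjusted p = 0.158). Ddi2, the protease that releases NRF1, rose by 0.36. Calls were lost for Nfe2l2 without animal 1 or 4, at -0.35 and -0.33, for Ngly1 without animal 1, 2 or 4, at -0.28, -0.21 and -0.28, and for Ddi2 without animal 1, 2 or 3, at 0.36, 0.33 and 0.29. Under spike-in scaling Nfe2l1 alone was called, still lower.

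Prefoldin, which hands unfolded actin and tubulin to CCT, rose in 4 of 6 subunits, and 4 were called under every scaling. Over all tested genes 36.1% were called higher under 75th percentile scaling. Pfdn4 rose by 0.75, Pfdn1 by 0.68, Pfdn2 by 0.67 and Pfdn6 by 0.61. Pfdn2 read 3.72, 3.76, 3.69 and 3.70 in RA (-), against 3.12, 3.02, 3.14 and 2.90 in RA (+), tight groups far apart. Of 4 tested CCT cofactors only Txndc9, a phosducin-like protein, rose, by 0.57. Of the chaperonin-like proteins of cilia, Bbs12 rose by 0.69 and Bbs10 by 0.31, and the call of Bbs10 was lost under spike-in scaling and without animal 2, 3 or 4, at 0.25, 0.29 and 0.31.

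Other chaperones were mixed. Of 18 tested 10 rose, with a median of 0.36, and Hspb1 and Bag3 fell, where the 18 and the median take in Hspa1a. Over all tested genes 36.1% were higher and 28.2% lower. Hspa14, a ribosome-associated Hsp70 protein, rose by 0.89, and Hspe1, the lid of the mitochondrial chaperonin, by 0.88. Hspb1, a small heat shock protein, fell most, with -1.18, -1.07, -0.39 and -0.98 in RA (-), against 2.44, 2.37, 2.63 and 2.42 in RA (+). The groups were far apart, and the change was -3.37 (SE 0.11, adjusted p = 4.38e-05 by limma). Bag3, a co-chaperone of stress responses, fell by 0.70, a call lost under spike-in scaling. Hspa1a, the stress-inducible Hsp70, was above background on all RA (+) arrays and no RA (-) array, at least 1.64-fold lower in RA (-). It passed the filter only through RA (+), so its call is not counted here as a result. Under quantile normalization 5 of these chaperones were called higher, beside 29.2% of all tested genes. The calls of lower there were 6, a number that takes in Hspa1a and is not read as a result.

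**Figure D5:**
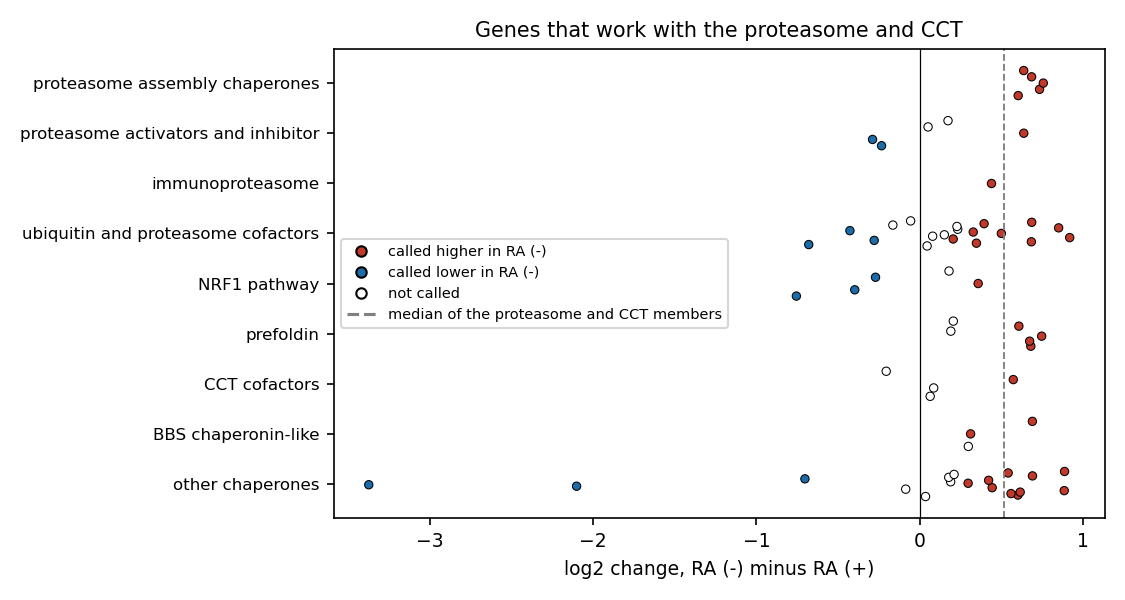
Fitted log2 change, RA (-) minus RA (+), under 75th percentile scaling for each tested gene of 9 lists related to the proteasome and CCT, with red points called higher in RA (-), blue points called lower and white points not called. All 5 assembly chaperones lie at or above 0.60, while the lists of ubiquitin cofactors and other chaperones hold calls in both directions; in the lowest list the leftmost blue point is Hspb1 and the next is Hspa1a, for which the text gives only a bound.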

How the data were processed

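Per the file headers, the authors read spot intensities from 8 arrays of design 028005, on 1 slide in 1 scan, using Feature Extraction 11.5.1.1, so no batch could be tested. Per the file headers, background subtraction and detrending within an array gave the deposited processed intensity. Per the labels, 40 or 200 ng of RNA was labelled, with no record of which array had which. The authors also deposited log2 values, which followed the centred scanner values within 0.01 of a constant for over 99.5% of probes; their column medians were -0.07, 0.01, 0.17 and 0.20 for RA (-) and -0.23, -0.22, 0.02 and -0.01 for RA (+) replicates 1 to 4, and their exact scaling is unknown. 

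Outlier spots were left out, and each array's 75th percentile was subtracted from log2 signals. No non-control spot was saturated. Accessions named 27235 probes through a RefSeq table of GRCm38.p6, and 28446 probes had no match. Array annotation rests on mm9. A probe was tested if 4 or more of 8 arrays showed it well above background, and the probe with the highest mean stood for a gene. The fit was limma 3.58.1 in R 4.3.3, two-sided, with animal as a block and Benjamini-Hochberg adjustment over 13539 genes; it was tested on simulated data. The pairing is stated in the series design; deviations of the arrays of animals 1 to 4 correlated at 0.52, 0.30, 0.19 and 0.33. Array number limits precision.

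Psmc3ip and Cct8l1 are not subunits and were left out, as were pseudogenes. RefSeq lists pseudogenes of Psma5, Psmb5, Psmb6, Psmb7, Cct3 and Tcp1, and cross-hybridisation was not tested. Values for every array are given for the catalytic subunits, the largest and smallest called change of each class and the tissue-specific paralogs, and other lists are represented by up to 4 called genes and those against the list's majority. Members and lists were chosen with earlier results of these data known. Bounds set the bright group's mean against the lowest signal well above background on each dim array. For Psmb9 that mean takes in the RA (+) array on which it was not above background. Alternatives were 4 other scalings, the authors' log2 table, 2 filters, the mean over probes, no block and leaving out each replicate. The normexp alternative used median spot signals, since the arrays' files hold no mean signal. A few genes of the other lists are not reported here.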

Additional observations from a re-analysis of the deposited data

Results flagged for a closer look

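For 6 of 86 groups of 4 arrays (43 members in 2 media), 1 array lay far from the others by Dixon's critical value; chance gives about 1 in 20 groups. In all 6 the array was replicate 1 and the lowest. In RA (-) these were Psma6 at 4.90 (next array 5.30), Psmd10 at 0.19 (0.98), Cct2 at 6.55 (6.84) and Cct4 at 4.24 (4.57). In RA (+) these were Psma2 at 6.10 (6.47) and Psmc1 at 6.77 (6.92). Without animal 1, 33 of 43 members were called higher in RA (-), with a median change of 0.54, against 36 and 0.51 with it.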

How the results depend on the processing

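The authors' deposited log2 table and the mean over all tested probes changed the call or direction of no member, and both left 36 higher. Without the replicate block, that is ignoring the animal pairing, 34 members and 8022 genes were called, 2 members losing their calls. Without the filter on dim probes 32 were higher, beside 23.5% of all genes in that fit. With probes above background on all arrays 38 were higher, beside 40.0% of all genes in that fit. Leaving out 1 replicate gave 31 to 37 members higher, with medians of 0.46 to 0.54, and 24 to 30 proteasome genes; the fewest were without replicate 4, which also left 6 of 14 non-ATPase genes called (range 6 to 11). Medians over these fits were 0.54 to 0.67 for alpha, 0.47 to 0.48 for beta, 0.42 to 0.48 for ATPase, 0.35 to 0.49 for non-ATPase and 0.43 to 0.59 for CCT genes, and 0.46 to 0.54 for the proteasome, with 7 alpha, 6 to 7 beta, 5 to 6 ATPase and 7 CCT genes called and none lower; over all genes 4079 to 4663 were higher and 3263 to 3582 lower. Under quantile normalization 14 members were called (12 of the proteasome, 2 beta, 2 ATPase, 3 non-ATPase, 2 CCT), with medians of 0.15 over all members, 0.14 for the proteasome, 0.26 alpha, 0.020 beta, -0.0046 ATPase, 0.14 non-ATPase and 0.18 CCT. Signs turned there for Cct2 (-0.035), Psmb1 (-0.068), Psmb5 (-0.046), Psmc1 (-0.015), Psmc3 (-0.031), Psmc5 (-0.082), Psmd2 (-0.18), Psmd3 (-0.23) and Psmd8 (-0.057). Under normexp with quantile normalization 19 were higher (15 of the proteasome, 2 beta, 2 ATPase, 6 non-ATPase, 4 CCT) and 2 non-ATPase genes lower, with medians of 0.13 over all members, 0.11 for the proteasome, 0.26 alpha, 0.030 beta, 0.0012 ATPase, 0.11 non-ATPase and 0.13 CCT. Signs turned there for Psmb1 (-0.074), Psmb5 (-0.0456), Psmc1 (-0.022), Psmc3 (-0.0079), Psmc5 (-0.0625), Psmd2 (-0.17), Psmd3 (-0.22) and Psmd8 (-0.034). With the 75th percentile of probes above background on all arrays, medians were 0.39 for the proteasome, 0.36 beta and 0.33 ATPase, and Psmd5 (-0.011) and Psmd8 (-0.019) turned, as both did without replicate 3 (leaving out 1 replicate gave -0.018 to 0.19 for Psmd5 and -0.051 to 0.186 for Psmd8). Under spike-in scaling 2 ATPase genes were called, medians were 0.66 over all members, 0.65 for the proteasome, 0.62 beta, 0.59 ATPase and 0.60 non-ATPase, and 2036 of all genes were lower. Medians of the CCT cofactors turned to -0.037, -0.016 and -0.021 under the detected-probe percentile, quantile and normexp with quantile settings and ranged from -0.014 (without replicate 3) to 0.14 with 1 replicate left out; that of the activators turned to -0.061 under the detected-probe percentile and ranged from -0.021 (without replicate 2) to 0.0945. Of all genes called, 56.1% were higher under 75th percentile scaling, 46.3% under the detected-probe percentile, 47.0% and 47.4% under the quantile settings and 62.5% under spike-in scaling. The cause of these differences was not tested. Signal over background limits Psma8, Psmb11 and Psmb8, for which no change is given, and Psmb9, for which only a bound is given. Without the filter on dim probes, the calls of Psmc5, Psmd7, Psmd11 and Psmd14 were lost.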
